A study of Rattus norvegicus with 12 samples.

Results

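Whey is the clear fraction of milk that is left after fat, cells and casein have been spun out, and it carries small RNAs. The whey of lactating rats on day 16 postpartum (d 16 whey) was compared with that of day 9 (d 9 whey), 2 stages of mature milk. Of the 188 rat miRNAs that the scanner software detected on any of the 12 arrays of the study, the 149 detected on at least 1 of the 6 arrays of these days were taken as the miRNAs of mature whey. The samples came from 3 untreated dams of the inbred strain F344/N, which were 14 weeks old when pregnant, and each rat gave 1 sample on each day after an oxytocin injection. Pups were taken from the dams before milking. Whey of the same rats on day 2 and serum collected on day 21 were on 6 further arrays and entered the fit only as other groups. The d 16 arrays were on 1 slide with the serum arrays, and the d 9 arrays were on the other slide with the d 2 arrays. Each slide was 1 scan, so the day and the slide cannot be told apart in any difference given here.

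MicroRNAs are short RNAs that guide the Argonaute protein to messenger RNAs, mostly through pairing of the seed, which is bases 2 to 8 from the 5′ end, and so lower the output of their targets. miRNAs with 1 seed form a family that can share targets, and neighbouring miRNA genes are often transcribed together as a cluster. In milk, miRNAs are held in extracellular vesicles and other particles that protect them from degradation, and much of the whey miRNA is thought to come from the mammary epithelium. The miR-17-92 cluster and its paralogs are known for promoting proliferation, while let-7 and miR-29 are known as families that rise as tissues mature.

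The sequences below are those of the 14 miRNAs that passed the test between the days and of 5 close relatives that did not pass it. They are shown because several miRNAs of a seed passed in some families, and only a single one passed in others. They are RefSeq mature sequences (assembly GRCr8), with the seed in capitals. RefSeq entries matched 127 of the 149 miRNAs.

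miR-17-5p: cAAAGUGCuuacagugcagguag
miR-20a: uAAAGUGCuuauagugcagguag
miR-93: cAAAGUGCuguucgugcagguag
miR-106b: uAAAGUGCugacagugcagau
miR-25: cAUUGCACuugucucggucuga
miR-92a: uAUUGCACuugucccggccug
miR-130b: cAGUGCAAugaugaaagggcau
miR-19a: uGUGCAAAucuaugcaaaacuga
miR-19b: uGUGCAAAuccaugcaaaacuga
miR-29b: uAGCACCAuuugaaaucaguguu
miR-29a: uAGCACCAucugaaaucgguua
miR-30e: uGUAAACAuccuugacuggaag
miR-30c: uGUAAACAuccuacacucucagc
miR-148b-3p: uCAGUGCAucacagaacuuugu
miR-146b: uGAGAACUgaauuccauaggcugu
miR-26a: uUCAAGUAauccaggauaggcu
miR-27a: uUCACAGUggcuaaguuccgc
miR-224: cAAGUCACuagugguuccguuu
miR-292-5p: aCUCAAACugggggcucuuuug

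The 3 miRNAs miR-17-5p, miR-20a and miR-93 that were lower on d 16 have the seed AAAGUGC, and the pair miR-25 and miR-92a that were lower have the seed AUUGCAC. miR-19a and miR-19b, which lie in the same cluster as miR-17-5p and miR-20a, have another seed and did not pass the test. In GRCr8 the precursor hairpins of miR-17-5p, miR-18a, miR-19a, miR-20a, miR-19b and miR-92a lie together at chr15:98587848-98588632 on the plus strand, and further copies of miR-17-5p, miR-19b and miR-92a lie at chrX:137342928-137343647 on the minus strand. The hairpins of miR-25 and miR-93 are at chr12:22156641-22156930 on the minus strand, within the gene Mcm7. The gene of miR-106b, which did not pass, is on the same chromosome and strand, but no position was matched for its hairpin. The hairpins of miR-30e and of 1 of the miR-30c genes are at chr5:139634455-139637541 on the minus strand, within Nfyc.

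Total signal per array before normalization was 76845, 120359 and 103472 in d 16 whey of rats 1, 2 and 3, against 90179, 106976 and 70752 in d 9 whey. The d 16 mean was 0.16 higher on the log2 scale, which was less than the spread between rats (exact permutation test, two-sided, p = 0.6; 3 against 3 arrays cannot go below p = 0.1). Single arrays detected 122 to 140 miRNAs on d 16 and 121 to 136 on d 9. Over the 113 miRNAs detected on all 6 arrays, pairs of arrays of the same day correlated at 0.955 to 0.994 (6 pairs), and pairs of different days at 0.934 to 0.972 (9 pairs), across miRNAs, which are not independent replicates. The d 9 array of rat 3 stood apart: 7 of the 113 miRNAs lay over 1 log2 unit below both other d 9 arrays on it and 1 above, while each of the other 5 arrays had 0 to 2 such miRNAs. The 7 were miR-143, miR-195, miR-125b-5p, miR-130a, miR-221, miR-204 and miR-327. Calls that were lost without this array are named where the miRNA is described.

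Each array received the same mass of RNA, so that a value is a share of the RNA of a sample and not an amount per volume of whey, and fewer cells that release a miRNA cannot be told apart from less release per cell. From here on a level is the log2 of the total signal of a miRNA after quantile normalization over the 12 arrays, and a difference is d 16 minus d 9. Each miRNA was read by 20 spots of 1 or more probe sequences. Quantile normalization gives the same value to the same rank on every array, so the brightest miRNA, miR-1224, was at 14.55 on all 6 arrays, let-7b at 13.12 and let-7c at 12.44, and a difference of 0.00 there means an unchanged rank. miR-200c and let-7a, which completed the 5 brightest, were at 11.87 ± 0.13 and 11.80 ± 0.13 on d 16 and at 11.80 ± 0.25 and 11.34 ± 0.18 on d 9 (SD, n = 3 each). Signals of different miRNAs come from different probes and do not rank their amounts.

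Day 16 and d 9 whey held nearly the same miRNAs. Of the 149, 143 were detected on d 16 and 144 on d 9, and 138 on both days. Only on d 16 arrays were miR-542-3p, miR-455, miR-206, miR-182 and miR-99b detected, each on 1 or 2 of the 3 arrays. Only on d 9 arrays were miR-10a-5p, miR-10b, miR-451, miR-181d, miR-196c and miR-370 detected, likewise on 1 or 2 of the 3. The mean levels of these 11 miRNAs were under the background limit on both days, where the limit of an array is the dimmest signal it gave for a detected miRNA of whose spots a share of 0.5 or more stood well over background. The limits were 3.77 to 4.84 on d 16 arrays and 4.24 to 4.61 on d 9 arrays, so the presence of these miRNAs on 1 day and not on the other was not measurable at this signal.

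Most levels moved little. The difference was under 0.5 in either direction for 98 of the 149 miRNAs, and over the 113 detected on all 6 arrays the median size of the difference was 0.23, beside median SDs of 0.15 between rats on d 16 and 0.18 on d 9. In limma, fitted over the 188 miRNAs detected on any of the 12 arrays, 14 miRNAs passed a Benjamini-Hochberg adjusted p of 0.05, all of them among the 149, and they make up 7.45% of those tested. Of the 14, 8 were higher on d 16 (4.26% of those tested) and 6 were lower (3.19%). All 14 were detected on all 6 arrays, and their d 16 and d 9 values did not overlap. Levels of the 2 days did not overlap for 49 of the 149, 21 higher and 28 lower, beside 27.1% of all tested in either direction, 11.2% higher and 16.0% lower. The unadjusted p was under 0.05 for 45 of the 149, beside 24.5% of all tested. The count of 14 fell to 8 (3 higher and 5 lower) without the d 9 array of rat 1. Without the d 9 array of rat 3, 16 passed, and 12 of the 14 were among them. With only the d 16 and d 9 arrays in the fit and the rat as a block, 4 miRNAs passed. Of these, miR-20a and miR-92a were among the 14, so that the other 12 calls were lost. The 4 also held miR-320, which all 6 arrays detected, and miR-122, which none of the 6 detected. With normexp background correction 17 passed, 10 of the 14 among them, and the differences of dim miRNAs were smaller, at 0.57 for miR-224, 0.35 for miR-292-5p and -0.31 for miR-130b. When each array was instead scaled to its own 75th percentile over every miRNA measured, 21 miRNAs were higher and 6 lower, and without normalization 0 passed.

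**Figure D1:**
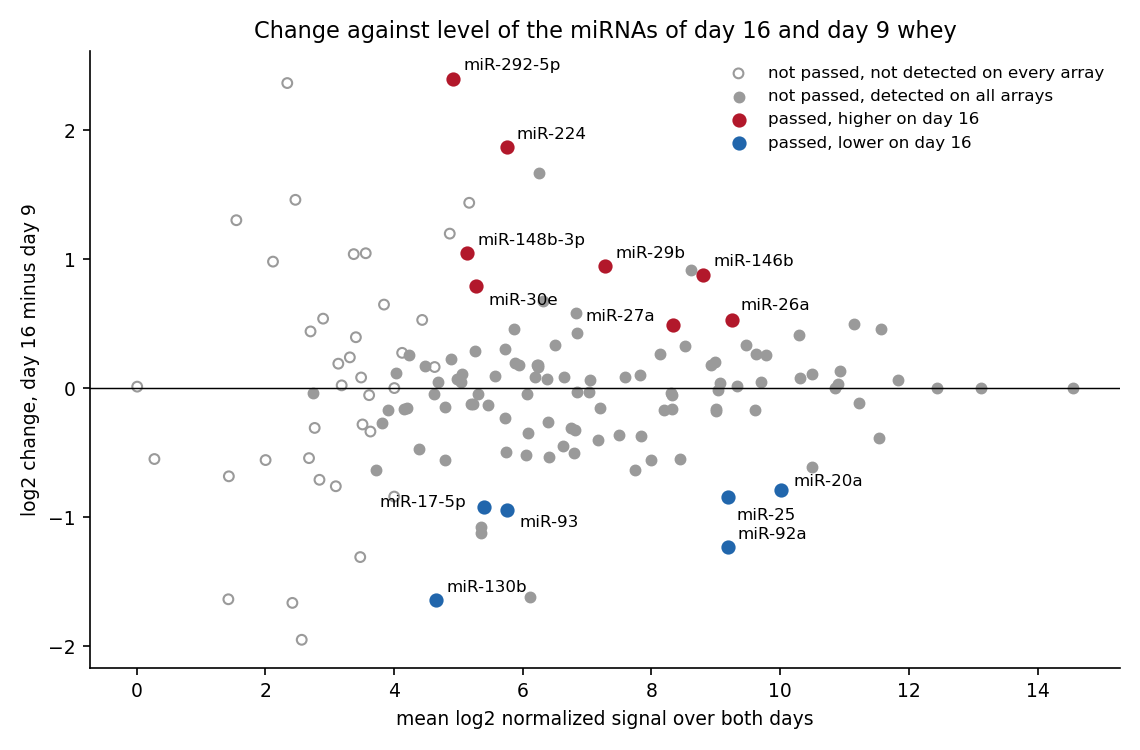
Each point is 1 of the 149 miRNAs, with its mean log2 normalized signal over both days on the x axis and the log2 difference, d 16 minus d 9, on the y axis. The 8 miRNAs that passed and were higher on d 16 are red, the 6 that passed and were lower are blue, and open circles are miRNAs not detected on every array, which spread widest at the dim end.

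The miRNAs that were lower on d 16 were members of the miR-17-92 group, with miR-130b beside them. This group takes in the miR-17-92 cluster and its paralogs, which act on inducers of cell death such as BIM. Of 11 listed members, 9 were among the 149, and 5 of the 9 passed as lower on d 16, 0 as higher and 4 did not pass. Over all 188 tested, 3.19% passed as lower. The list was written with earlier results of these data known. The median difference of the 9 was -0.79, beside 0.00 over all tested. miR-20b-5p and miR-363, the other two, were not detected in mature whey.

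miR-92a fell most in this group. It had 8.60, 8.43 and 8.67 in d 16 whey of rats 1, 2 and 3, against 9.73, 9.73 and 9.94 in d 9 whey, and every d 16 value lay at least 1 unit under every d 9 value. The difference was -1.23 ± 0.23 (SE; adjusted p = 0.0098), or 2.35-fold lower. miR-25, which shares its seed and lies within Mcm7, had 8.95, 8.95 and 8.43 in d 16 whey against 9.53, 9.60 and 9.73 in d 9 whey. It was 1.79-fold lower (-0.84 ± 0.14, adjusted p = 0.0080), with the lowest value in d 16 whey of rat 3.

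miR-20a had the smallest SE of the group's calls. It had 9.60, 9.53 and 9.73 in d 16 whey, against 10.43, 10.35 and 10.43 in d 9 whey. These values were tight on both days and gave a difference of -0.79 ± 0.11 (adjusted p = 0.0073). miR-17-5p, which differs from miR-20a at 2 bases over their length, had 4.84, 5.13 and 4.84 in d 16 whey, against 5.92, 5.67 and 5.97 in d 9 whey. Every d 16 value was again under every d 9 value, and the difference was -0.92 ± 0.14 (adjusted p = 0.0073). Before normalization its total signal was 17.62 to 43.91 over the 6 arrays, against 555.3 to 1444 for miR-20a. Binding of the far brighter miR-20a to the probes of miR-17-5p was not tested, so the 2 calls may not be independent. miR-93 had 5.21, 5.40 and 5.26 in d 16 whey and 6.12, 6.23 and 6.35 in d 9 whey, a difference of -0.95 ± 0.16 (adjusted p = 0.0080). With normexp background correction the calls of miR-17-5p (-0.18, adjusted p = 0.12) and miR-93 (-0.27, adjusted p = 0.077) were lost.

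The fourth miRNA with this seed, miR-106b, did not pass. It had 8.08, 8.34 and 8.08 in d 16 whey, against 8.75, 8.53 and 8.87 in d 9 whey. The values did not overlap, and the difference was -0.55 ± 0.17 (adjusted p = 0.088). miR-18a, the last of the 9, had means of 3.37 on d 16 and 3.65 on d 9, under the mean background limits, and differed by -0.28 ± 0.26.

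The 2 miR-19 miRNAs of the same cluster did not go with miR-17-5p, miR-20a and miR-92a, the cluster's miRNAs that passed. miR-19b had 9.45, 9.33 and 9.25 in d 16 whey, against 9.33, 9.12 and 9.52 in d 9 whey. The days overlapped, and the difference was 0.02 ± 0.12 (adjusted p = 1.0). miR-19a, at about 5.6 on d 16 and 5.5 on d 9, differed by 0.09 ± 0.10 (adjusted p = 0.74). A difference between miR-19 and the miRNAs of the cluster that passed can be read on each array without any normalization between arrays. The log2 ratio of the total signals of miR-92a and miR-19b was -0.65, -0.79 and -0.49 on the d 16 arrays of rats 1, 2 and 3, against 0.49, 0.43 and 0.54 on the d 9 arrays. The log2 ratio of miR-20a to miR-19b was 0.16, 0.22 and 0.39 on d 16, against 1.17, 1.13 and 1.01 on d 9. For miR-17-5p over miR-19a it was -0.73, -0.51 and -0.69 on d 16, against 0.29, 0.11 and 0.36 on d 9. None of these 3 ratios overlapped between the days. The pairs hold miRNAs chosen because they differed between these days, so their ratios are a description and were not tested.

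Without normalization between arrays, the mean log2 total signal of the 8 miRNAs of the group that all 6 arrays detected lay 0.83, 0.72 and 0.88 above the array's median in d 16 whey, against 1.50, 1.37 and 1.59 in d 9 whey. The median was taken over the 113 miRNAs detected on all 6 arrays. All 3 d 16 arrays were lower than all 3 d 9 arrays. The 8 miRNAs include the 5 that passed as lower in this same comparison, so the mean largely restates those calls and was not tested.

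miR-130b was the other miRNA that was lower on d 16. It acts on the adipogenic regulator PPARγ, and its seed is that of miR-19 moved by 1 base. It had 3.43, 4.16 and 3.88 in d 16 whey, against 5.30, 5.18 and 5.92 in d 9 whey. The d 16 mean was under the background limit, so it was at least 1.97-fold lower, with a fitted difference of -1.64 ± 0.36 (adjusted p = 0.022). In the fit on signals set to the background limit, from which this bound comes, it did not pass (adjusted p = 0.14). The call was also lost without the d 16 array of rat 1 (adjusted p = 0.066) or rat 3 (0.059), and without the d 9 array of rat 1 (0.059) or rat 3 (0.071). Its relative miR-301a was under the background limit on both days. miR-130a differed by -0.55 and did not pass. It had 7.77, 7.53 and 7.84 in d 16 whey against 8.53, 8.75 and 7.53 in d 9 whey, with an overlap at the d 9 value of rat 3.

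**Figure D2:**
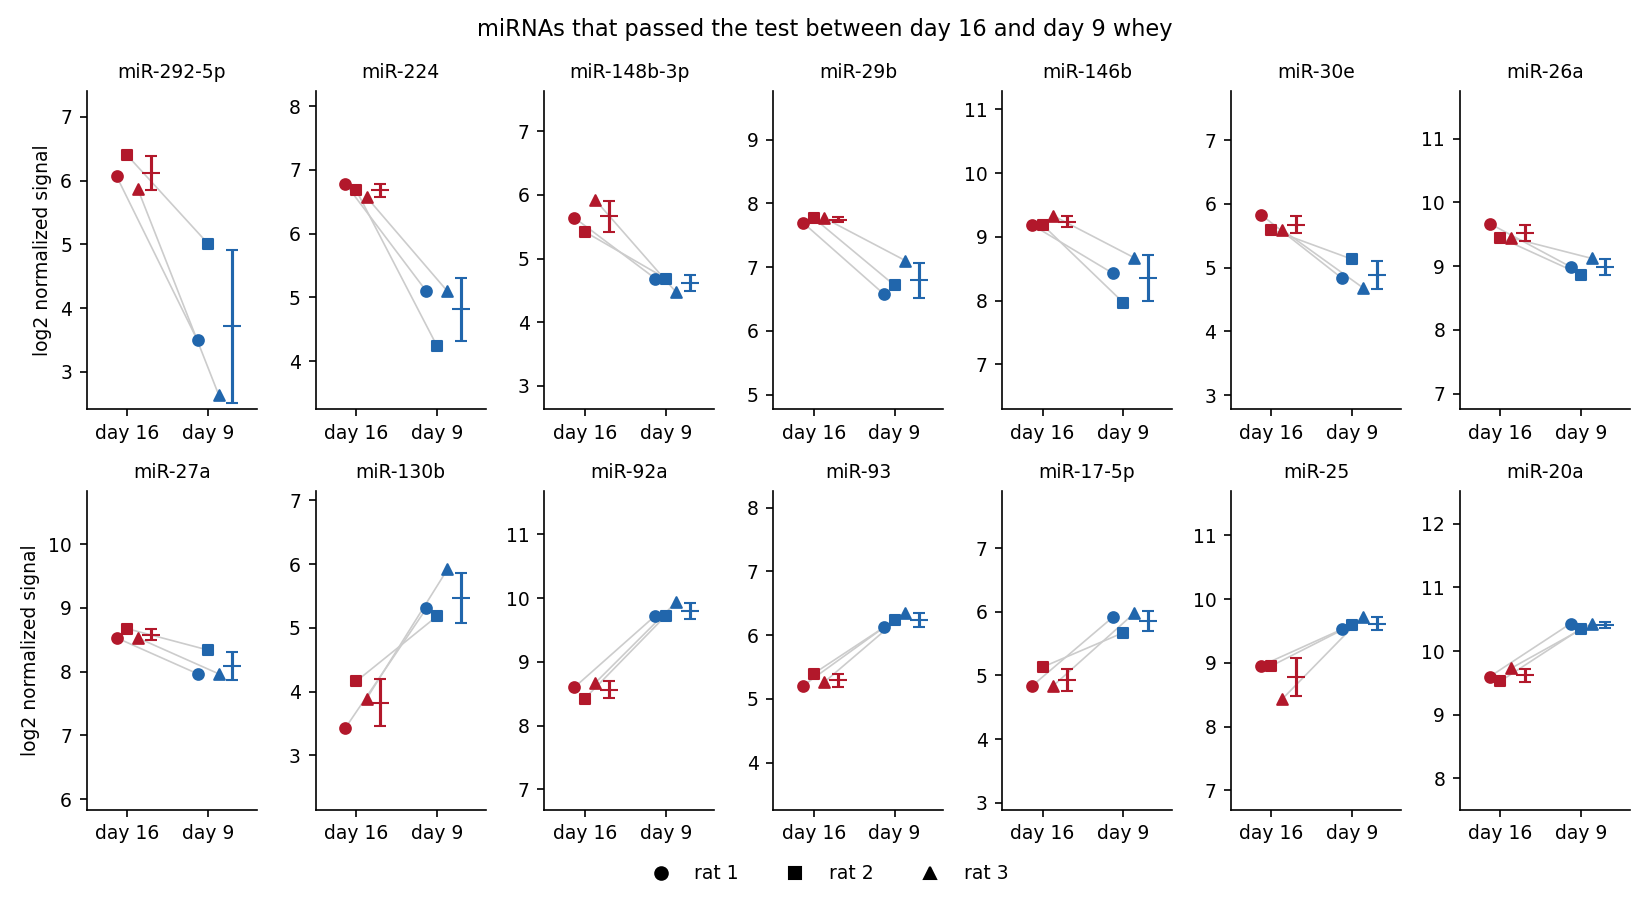
The log2 normalized signal of each of the 14 miRNAs that passed is plotted for each rat, with d 16 whey at the left and d 9 whey at the right of each panel. Grey lines join the samples of 1 rat, bars show the mean and SD of the 3 rats, and every panel spans the same number of log2 units. The first 8 panels are higher on d 16 and the last 6 are lower, and in none do the days overlap.

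The 8 miRNAs that were higher on d 16 came from 8 different seed families, and in 6 of these a second member was present that did not pass. The largest difference among those measured above background on both days was that of miR-224, whose hairpin lies within the GABA receptor gene Gabre (chrX:155107130-155107211). It had 6.78, 6.69 and 6.58 in d 16 whey, against 5.10, 4.24 and 5.10 in d 9 whey. The lowest d 16 value was 1.48 above the highest d 9 value, and the difference was 1.87 ± 0.33 (adjusted p = 0.0080), or 3.66-fold. It was detected on none of the d 2 arrays and on none of the serum arrays, where its mean levels were 2.46 and 1.35.

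miR-292-5p had the largest fitted difference. It belongs to the miR-290 cluster of rodents, which is known from embryonic stem cells. It had 6.07, 6.40 and 5.87 in d 16 whey, against 3.49, 5.01 and 2.64 in d 9 whey. The d 9 values were scattered and their mean was under the background limit, so it was at least 2.63-fold higher (fitted 2.40 ± 0.47, adjusted p = 0.011). Nearly all of its signal came from 1 of its 4 probe sequences, which gave total signals of 41.37, 111.8 and 43.52 on d 16, against 7.004, 32.45 and 5.168 on d 9. The other 3 probe sequences stayed under 2.4 on all 6 arrays and gave no reading of a direction. The call was lost without the d 16 array of rat 2 (adjusted p = 0.054) or the d 9 array of rat 1 (0.055), and the difference was 1.86 without the d 9 array of rat 3 and 3.05 without that of rat 2. Its neighbours in the cluster did not pass. miR-291a-5p had 6.65, 6.35 and 6.65 in d 16 whey against 6.84, 7.16 and 7.16 in d 9 whey, and differed by -0.51. miR-294 had 7.42, 7.33 and 7.52 in d 16 whey against 7.70, 8.29 and 8.20 in d 9 whey, and differed by -0.64.

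miR-29b was the 1 of 3 miR-29 miRNAs that passed. The family targets collagens and the DNA methyltransferases Dnmt3a and Dnmt3b. miR-29b had 7.70, 7.77 and 7.77 in d 16 whey, against 6.58, 6.71 and 7.11 in d 9 whey. It was 1.93-fold higher (0.95 ± 0.18, adjusted p = 0.0099), and the adjusted p was 0.053 without the d 9 array of rat 1. miR-29a, which differs from miR-29b at 5 bases counted from the 5′ end, kept its rank among the brightest and differed by 0.00 ± 0.10, and miR-29c by 0.27 ± 0.15 (adjusted p = 0.31). When each array was instead scaled to its 75th percentile, taken over miRNAs with a detection call on every array, miR-29a and miR-29c also passed, with differences of 0.46 and 0.46. The log2 ratio of miR-29b to miR-29a on single arrays was -3.44, -3.29 and -3.44 on d 16, against -4.22, -4.29 and -3.73 on d 9, and did not overlap.

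miR-148b-3p and miR-152 share a seed and target the DNA methyltransferase Dnmt1. miR-148b-3p had 5.64, 5.42 and 5.92 in d 16 whey, against 4.69, 4.69 and 4.47 in d 9 whey, and was 2.06-fold higher (1.05 ± 0.19, adjusted p = 0.0080). With normexp background correction it was at 0.22 and did not pass (adjusted p = 0.12). miR-152 had 6.58, 6.52 and 6.92 in d 16 whey against 6.15, 6.40 and 6.44 in d 9 whey, which did not overlap, and differed by 0.34 ± 0.22 (adjusted p = 0.41). On single arrays, miR-148b-3p over miR-152 gave log2 ratios of -1.08, -1.14 and -1.05 on d 16 arrays, against -1.18, -1.49 and -1.69 on d 9 arrays.

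Among the 5 miR-30 miRNAs, which act in differentiation and in epithelial identity, 1 passed. miR-30e had 5.83, 5.60 and 5.60 in d 16 whey, against 4.84, 5.13 and 4.69 in d 9 whey, a difference of 0.79 ± 0.12 (adjusted p = 0.0073). miR-30c, whose gene is its neighbour in Nfyc and which has a second gene elsewhere, had 6.12, 5.87 and 5.74 in d 16 whey, against 6.44, 6.19 and 6.15 in d 9 whey. Its difference of -0.35 ± 0.12 did not pass (adjusted p = 0.092). Over miR-30c, miR-30e had log2 ratios of -0.58, -0.22 and -0.04 on d 16, against -1.30, -0.84 and -1.23 on d 9. miR-30b-5p differed by 0.46 ± 0.185, in the direction of miR-30e, and did not pass (adjusted p = 0.15). miR-30d was at -0.13 ± 0.145 (adjusted p = 0.73). miR-30a differs from miR-30e at 1 base and was at 0.06 ± 0.15. Binding of one such near-identical miRNA to the probes of another was not tested.

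miR-146b, a miRNA induced through NF-κB that targets the signalling proteins Irak1 and Traf6, had 9.19, 9.19 and 9.33 in d 16 whey, against 8.43, 7.96 and 8.67 in d 9 whey. It was 1.84-fold higher (0.88 ± 0.20, adjusted p = 0.022). The call was lost without the d 16 array of rat 2 (adjusted p = 0.062) or rat 3 (0.076) or the d 9 array of rat 1 (0.061). Its relative miR-146a had 5.60, 7.16 and 6.23 in d 16 whey against 6.19, 5.74 and 6.52 in d 9 whey, and these overlapped.

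miR-26a and miR-27a showed the smallest differences that passed. miR-26a, which targets the histone methyltransferase Ezh2, had 9.67, 9.45 and 9.45 in d 16 whey, against 8.99, 8.87 and 9.12 in d 9 whey (0.53 ± 0.12, adjusted p = 0.026). Its call was lost on leaving out any d 16 array or the d 9 array of rat 1 or rat 2, with adjusted p-values of 0.085, 0.054, 0.057, 0.077 and 0.074. miR-26b had 9.73, 9.60 and 9.60 in d 16 whey against 9.25, 9.33 and 9.33 in d 9 whey, which did not overlap (0.34 ± 0.15, adjusted p = 0.20).

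miR-27a, which acts on fat cell formation through PPARγ, had 8.53, 8.67 and 8.53 in d 16 whey, against 7.96, 8.34 and 7.96 in d 9 whey (0.49 ± 0.12, adjusted p = 0.035). Its call was lost on leaving out any d 16 array or the d 9 array of rat 1 or rat 3, with adjusted p-values of 0.066, 0.13, 0.076, 0.14 and 0.11, and with normexp background correction (0.27, adjusted p = 0.20). miR-27b, which differs from it at 1 base, was at -0.16 ± 0.13, and the sign of that difference turned under scaling to the 75th percentile of all miRNAs (0.05) and without normalization (0.12). miR-23a and miR-24, the cluster partners of miR-27a, differed by -0.02 and 0.04. The log2 ratio of miR-27a to miR-27b was 0.32, 0.56 and 0.26 on d 16, against -0.44, -0.17 and -0.06 on d 9, and did not overlap.

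**Figure D3:**
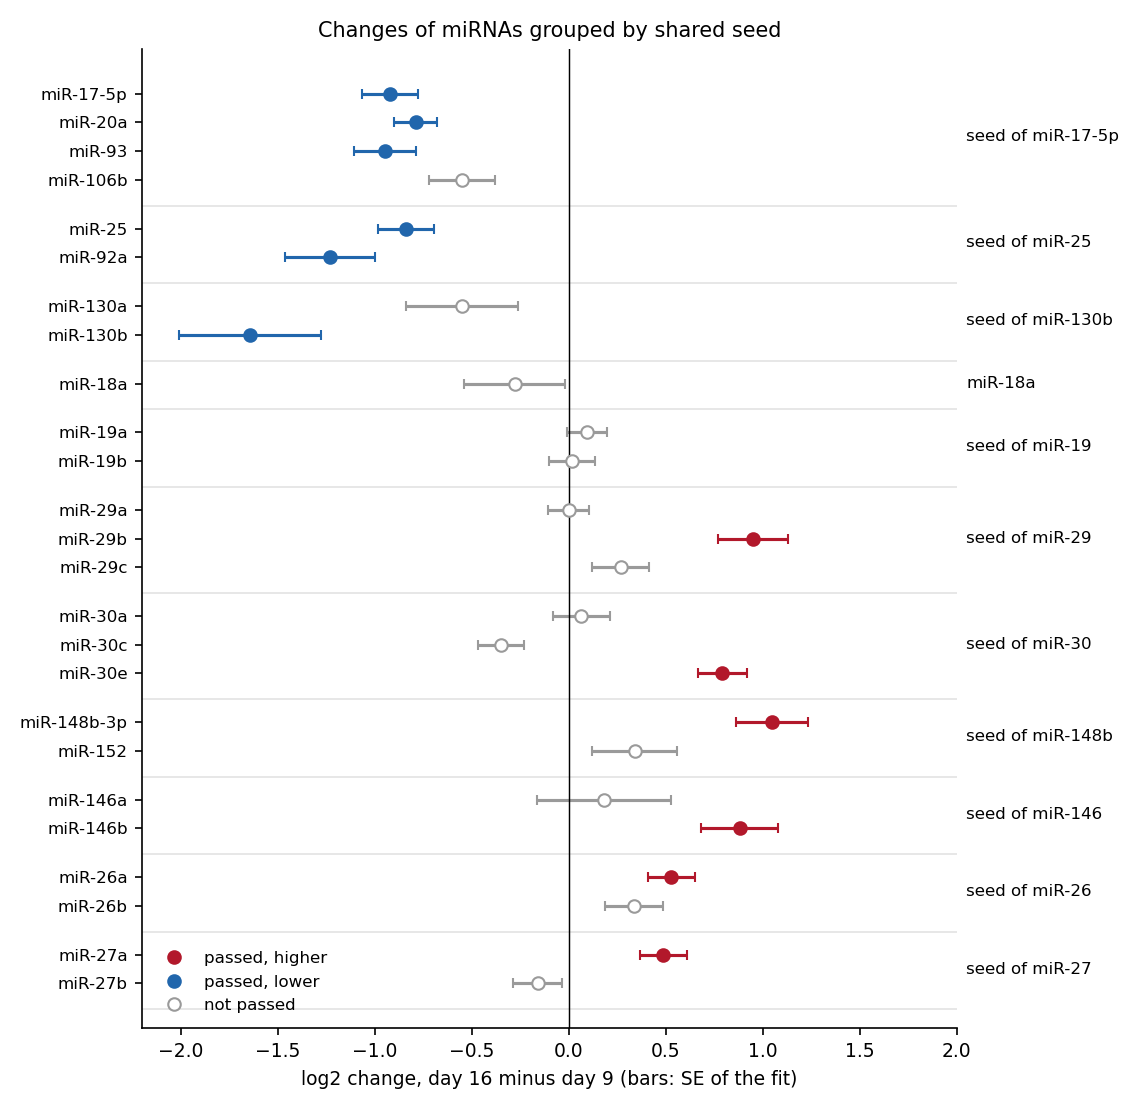
The log2 difference, d 16 minus d 9, of the miRNAs that passed and of relatives with a matched sequence is plotted with the SE of the fit, grouped by shared seed. The plot holds 12 of the 14 calls. Both miRNAs with the seed of miR-25, 3 of 4 with the seed of miR-17-5p and miR-130b passed as lower, while 1 member each of the miR-29, miR-30, miR-148b, miR-146, miR-26 and miR-27 seeds passed as higher.

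Over all members, the 127 miRNAs with a sequence had 92 seeds, and 21 of these seeds had 2 or more miRNAs. Of those 21, 9 held a miRNA that passed, and 0 held miRNAs that passed in both directions. Only the seeds AAAGUGC, with 3, and AUUGCAC, with 2, held more than a single miRNA that passed. No other seed could hold both directions, so the 0 says little about agreement within families. Neither count was tested. Each called miRNA was paired with relatives of its seed or cluster that did not pass and were detected on all 6 arrays. Seeds were known only for miRNAs with a matched sequence, and clusters only for hairpins with a position. Pairs of miR-30e with miR-30b-5p and miR-30d, and of miR-25 with miR-106b, were therefore not formed. The ratio within the array did not overlap between days for 21 of the 23 pairs formed. The exceptions were miR-146b over miR-146a and miR-130b over miR-130a. The pairs were chosen by which miRNAs passed between these same days, which favours ratios that do not overlap. The count is therefore a description and was not tested, and pairs of other miRNAs were not counted. GC content had a correlation of -0.237 with the difference across the 99 fully detected miRNAs with a sequence, which share the arrays. The median GC content was 41.3% for the 8 that were higher and 48.9% for the 6 that were lower, beside 45.5% for all 99.

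**Figure D4:**
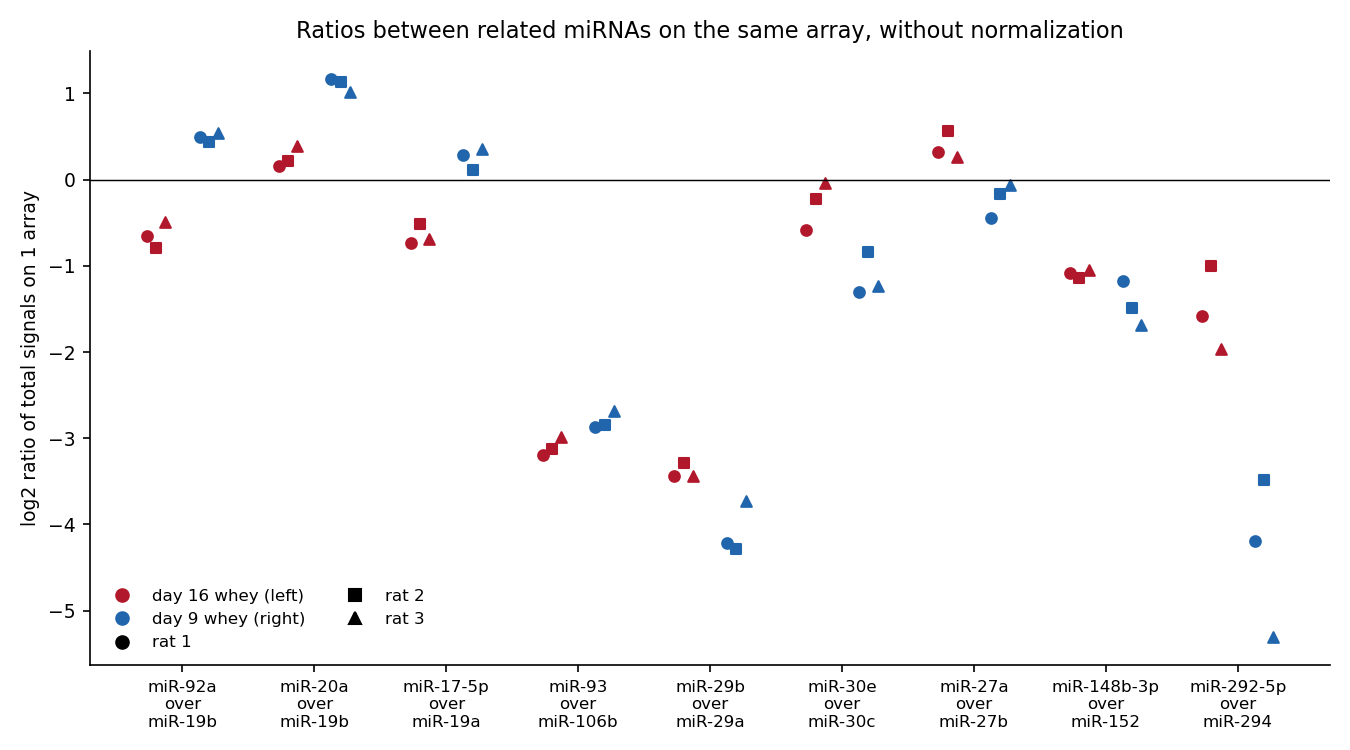
The log2 ratio of the total signals of 2 related miRNAs on the same array, with no normalization between arrays, is plotted for each rat, with d 16 whey (red) left of d 9 whey (blue). In the 9 pairs shown, the 3 d 16 arrays and the 3 d 9 arrays do not overlap. Each pair sets a miRNA that passed between these days against a relative that did not.

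For 9 of the 14 miRNAs that passed, both probe sequences gave signal, and both differed between the days in the direction of the call. For the other 5, miR-17-5p, miR-93, miR-30e, miR-130b and miR-292-5p, 1 probe sequence carried the signal and the others stayed under a total signal of 3 on all 6 arrays, so their direction rests on 1 sequence. By direction alone, at any signal, all probe sequences went the way of the call for 13 of the 14. Beside this, all went one way for 80 of the 113 fully detected miRNAs. The calls were made on the total signal of these same probe sequences, so their agreement is not independent of the calls. By level, 7 of the calls were among the 38 dimmest of the 113 fully detected miRNAs, 1 was among the next 37 and 6 were among the 38 brightest.

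The families in this and the next paragraph held no miRNA that passed. Since 7.45% of all tested passed, a count of 0 in lists this short says little about them. The let-7 family, which restrains proliferation, had 0 of 8 members past the threshold, and their median difference was 0.22, with 6 above 0 and let-7b and let-7c at 0.00, the tied ranks given above. When each array was instead scaled to its own 75th percentile over every miRNA measured, let-7c, let-7e and let-7f passed, with differences of 0.35, 0.58 and 0.60. let-7a, at 11.72, 11.72 and 11.95 in d 16 whey against 11.33, 11.17 and 11.52 in d 9 whey, did not overlap (0.46 ± 0.15, adjusted p = 0.092), and it passed when the rat was used as a block (adjusted p = 0.019). The miR-200 family, which maintains the epithelial state, had 0 of 5 past the threshold, with differences of 0.07 to 0.27. The miR-181 family, which acts in lymphocyte development, had 0 of 3 past the threshold, and 1 further listed member was detected on neither day. None of the 3 overlapped between the days, and all were lower on d 16. Over all 188 tested, 16.0% were lower without overlap. The differences were -0.36 for miR-181a, -0.49 for miR-181c and -0.76 for miR-181d, which was under the background limit on both days.

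Of the miR-15, miR-16 and miR-195 group, which restrains the cell cycle, and its relatives miR-103 and miR-107, which act in insulin signalling, 0 of 7 passed, and the median difference was -0.17. miR-107 came closest, at 10.19 in all 3 d 16 samples against 10.62, 10.79 and 10.99 in d 9 whey (-0.61 ± 0.16, adjusted p = 0.056), while miR-103, with the same seed, was at 0.05. The epithelial miR-31 had 9.12, 9.05 and 9.05 in d 16 whey, against 8.08, 8.08 and 8.34 in d 9 whey. Its values did not overlap, but the fit over all 4 groups gave an SE of 0.34 and an adjusted p of 0.12 for the difference of 0.91. With only the d 16 and d 9 arrays in the fit the adjusted p was 0.011. Of the miR-183 cluster, which is expressed in sensory and epithelial cells, miR-96 differed by 0.43 and miR-183 by -0.40, neither overlapped between the days and neither passed.

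Among the other miRNAs, 6 differed by at least 1 without overlap and did not pass. miR-210, the miRNA induced by hypoxia, had 4.67, 4.72 and 5.06 in d 16 whey, against 5.53, 5.87 and 6.28 in d 9 whey (-1.07 ± 0.31, adjusted p = 0.069). miR-99b* had 5.18, 5.06 and 5.67 in d 16 whey against 6.71, 6.28 and 7.77 in d 9 whey (-1.62 ± 0.51, adjusted p = 0.088). miR-327 had 7.16, 7.21 and 6.88 in d 16 whey against 5.67, 6.64 and 3.92 in d 9 whey (1.67 ± 0.58, adjusted p = 0.093), with its lowest value on the d 9 array of rat 3. The other three, miR-185, miR-451 and miR-199a-3p, were under the mean background limit on both days.

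Marker miRNAs of other cell types were dim or overlapped between the days. The erythroid marker miR-451 had 1.33, 0.00 and 0.49 in d 16 whey, against 1.59, 1.64 and 3.49 in d 9 whey, all under the background limits. It was detected on 0 of 3 d 16 arrays and on the d 9 array of rat 3, while its mean in serum was 14.55. The summed total signal of the 2 erythroid markers on the array was 0.00 to 1.96 on d 16 arrays and 2.43 to 9.97 on d 9 arrays. The endothelial and platelet markers miR-126 and miR-126* were detected on none of the 6 arrays. The leukocyte marker miR-223 had 5.40, 8.60 and 5.97 in d 16 whey, against 5.40, 5.97 and 6.58 in d 9 whey, with rat 2 on d 16 standing out, and miR-142-3p was at 2.60, 4.03 and 3.67 in d 16 whey against 3.60, 2.87 and 3.11 in d 9 whey. The other leukocyte markers, miR-142-5p and miR-150, were detected on none of the 6. The 4 leukocyte markers together gave 28 to 621 on d 16 arrays and 34 to 79 on d 9 arrays. The stromal marker miR-143 had 11.52, 11.17 and 11.52 in d 16 whey, against 11.52, 11.95 and 9.25 in d 9 whey, where rat 3 was low, and miR-145 and miR-199a-5p were not detected. miR-214 and miR-199a-3p had mean levels under the background limit on both days, with their highest values, 5.40 and 5.21, on the d 9 array of rat 3, and differed by -0.84 and -1.31. None of these 3 stromal markers passed, and their median difference was -0.84. The 5 stromal markers together gave 2308 to 3402 on d 16 arrays and 621 to 5012 on d 9 arrays. The muscle markers miR-1 and miR-133a were not detected either. miR-133b was detected on 3 d 16 and 2 d 9 arrays, at 4.71 ± 0.35 on d 16 and 4.55 ± 1.58 on d 9, and miR-206 on 2 d 16 arrays and 0 d 9 arrays, under the background limit on both days. The 4 muscle markers together gave 25.7 to 49.5 on d 16 arrays and 10.03 to 52.8 on d 9 arrays. Of the liver and gut markers miR-192 was detected, at 4.60 ± 0.13 on d 16 and 4.64 ± 0.13 on d 9. Of the epithelial markers, the 5 miRNAs of the miR-200 family, miR-31 and miR-205 (6.32 ± 0.17 on d 16 and 6.16 ± 0.46 on d 9) were detected on all 6 arrays, while miR-203 was detected on 2 of 3 arrays of each day and miR-182 on 2 d 16 arrays and 0 d 9 arrays. Whether the markers that moved had a part in the differences was not tested.

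The levels on d 2 and in serum place the 14 miRNAs in the rest of the series. In d 2 whey, d 9 whey and d 16 whey the mean of miR-29b was 5.74, 6.80 and 7.75, that of miR-224 2.46, 4.81 and 6.68, and that of miR-20a 10.92, 10.40 and 9.62. The means of 7 of the 14, miR-17-5p, miR-20a, miR-93, miR-224, miR-29b, miR-146b and miR-26a, ran one way over the 3 days, and the differences between d 9 and d 2 passed for miR-29b, miR-224 and miR-20a (45.2% of those tested passed in that comparison). The 4 miRNAs miR-148b-3p, miR-30e, miR-27a and miR-292-5p had their lowest mean on d 9, with means of 5.92, 4.61 and 5.66 for miR-148b-3p on the 3 days. The other 3, miR-25, miR-92a and miR-130b, had their highest mean on d 9, and miR-130b was at 2.47, 5.47 and 3.82. Between d 9 and d 2 whey, miR-25, miR-92a and miR-292-5p did not pass. The comparisons with d 2 share arrays with that of d 16 and d 9 and are not independent of it.

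In serum, the means of the 6 miRNAs that were lower on d 16 were above those of both whey days, at 12.20 for miR-92a, 10.85 for miR-25, 10.61 for miR-20a, 8.42 for miR-93, 7.18 for miR-17-5p and 6.97 for miR-130b. Of the 8 that were higher on d 16, serum was above both days for miR-27a, at 10.32, and not for the other 7. Over all 149 miRNAs, serum was above both days for 60. Serum shared its slide with d 16 whey.

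**Figure D5:**
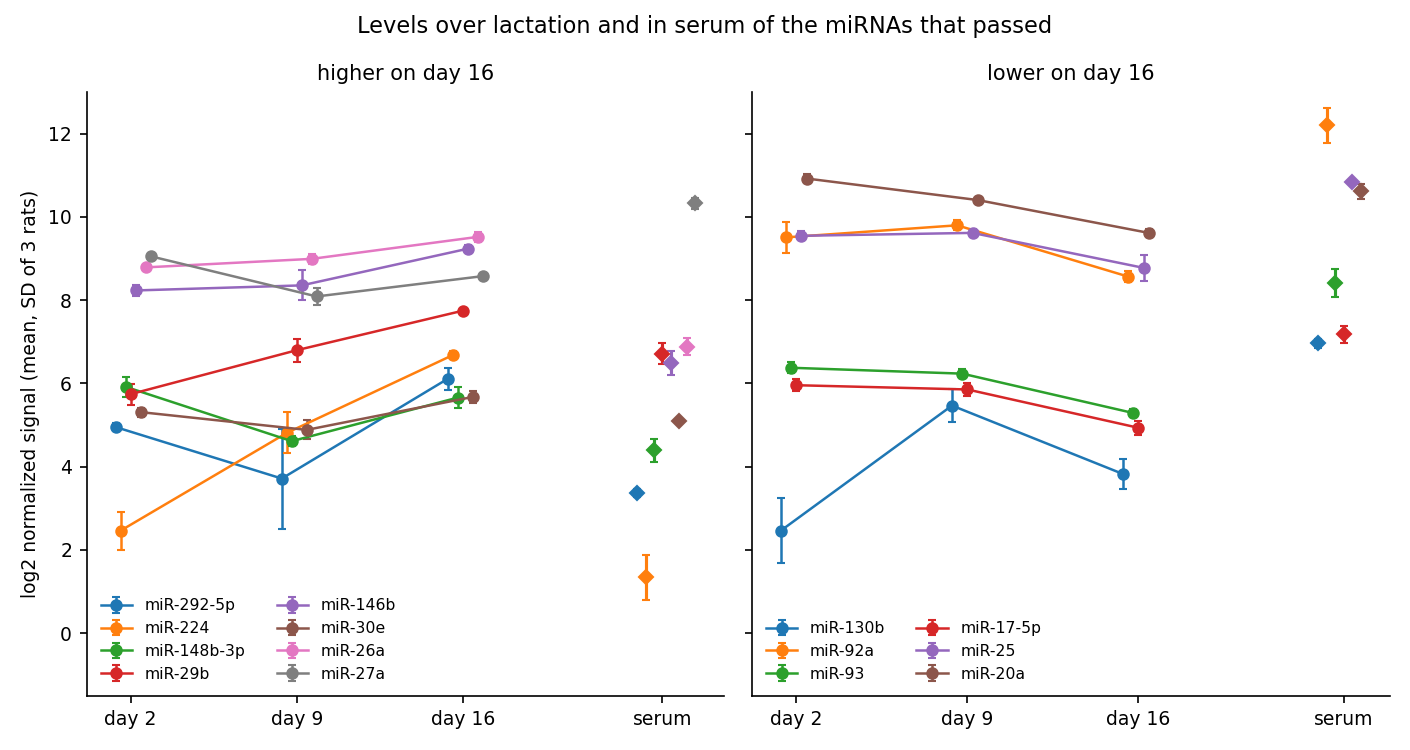
Means and SDs of 3 rats of the log2 normalized signal are plotted for d 2, d 9 and d 16 whey and, as diamonds, for serum, with the 8 miRNAs that were higher on d 16 than on d 9 at the left and the 6 that were lower at the right. Lines join the whey days, and the serum points of the 6 lower miRNAs lie above their mature whey levels.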

How the data were processed

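Total RNA (70 ng) of each whey or serum sample was labelled with 1 dye and hybridized to a rat miRNA array. The authors extracted the scans with Agilent Feature Extraction 9.5.3.1, per the labels, and the deposited intensity of each miRNA had its background subtracted, with no scaling between arrays. The series' deposited value table holds the spot intensity: all 8475 spots were within 1% of the scanner files on every array. The authors' quantile-normalized table, whose 12 columns name no sample, was not used.

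Total signals were quantile normalized over 12 arrays, floored at 1 and taken to log2. A model with 4 group means was fitted in limma 3.58.1 (R 4.3.3) to the 188 detected miRNAs, two-sided, with Benjamini-Hochberg adjustment at 0.05. Python 3.11.15 with scipy 1.17.1 and pandas 2.3.3 made the tables. Depth is set by array signal, and 3 rats per day limit the precision. No 2 arrays among 66 pairs were identical. The fit was tested on simulated data. Where a mean lay under the background limit, a fold is a lower bound: signals under an array's limit were set to it. RefSeq sequences are from GRCr8, and clusters are hairpins within 10 kb.

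The rat number of the labels pairs the samples, since it names the same animal. Deviations from the day means correlated at 0.431, 0.002 and 0.266 within rats 1, 2 and 3, and at -0.369 to 0.213 between different rats.

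Named were the miRNAs that passed, members of fixed family and marker lists, those detected on 1 day only, the 5 brightest, and those differing by at least 1 without overlap. The members, lists and alternatives were chosen with earlier results of these data known.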

Additional observations from a re-analysis of the deposited data

How the results depend on the processing

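The count of 14 miRNAs past the threshold (8 higher and 6 lower on d 16, 57.1% higher) stayed within 1.5 times under most alternatives, and none of the 14 changed direction in any of the 23. It was 27 (21 higher, 77.8%) with each array scaled to its 75th percentile, and 17 (64.7% higher) with the percentile of miRNAs detected on all arrays. It was 22 with a floor of 5 and 0 without normalization (19 at an unadjusted p under 0.05), where the median difference of all tested was 0.13, against 0.00 with normalization. With normexp background correction it was 17 (47.1% higher), without miR-148b-3p, miR-17-5p, miR-27a and miR-93, with quantile normalization of the 6 arrays alone 10, without miR-146b, miR-25, miR-26a, miR-27a, miR-292-5p and miR-30e, and with only fully detected miRNAs tested 18 (44.4% higher). With the rat as a replicate block it was 16 (9 higher, 7 lower), which added let-7a and miR-320 and lost 0. With the same block and only the d 16 and d 9 arrays fitted, it was 4 (1 higher, 3 lower), of which 2, miR-20a and miR-92a, were among the 14. With only these arrays fitted and no block it was 18 (9 higher, 9 lower), without miR-146b, miR-25, miR-27a and miR-292-5p. The Tukey-Kramer test of the methods gave 22 miRNAs at its own threshold of 0.05 and 1, miR-20a, after Benjamini-Hochberg adjustment. Leaving out 1 array at a time gave 8 to 17, the fewest without the d 9 array of rat 1 and 16 without that of rat 3, with 12 of the 14 among the 16. Setting signals to at least the background limit, chosen after seeing the data, gave 12, without miR-130b, miR-26a, miR-27a and miR-30e. Over the 23 alternatives miR-20a passed in 22, miR-92a in 21 and miR-224 in 20, but miR-27a in 8, miR-130b in 12, miR-26a in 13 and miR-146b in 14. The cause of these changes was not tested. Detection on at least 2 of 3 arrays of a day left 137 miRNAs on d 16 and 130 on d 9.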
